A study of Salmo salar with 30 samples.

Results

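The 102 array probes described here had lower signal in the distal intestine of Atlantic salmon (Salmo salar) on a soybean meal feed than in fish on a fish meal control feed, and remained nearly as low when either of 2 ingredient packages was mixed into the soybean meal. Gene expression was measured with 1-colour Agilent arrays, 1 array per fish, in 6 diets of 5 fish each (30 arrays). The tested feeds were soybean meal with package 1 (P1: butyrate at 0.01% and arginine at 1.5%), soybean meal with package 2 (P2: β-glucan at 0.1%, nucleotides at 0.05% and butyrate at 0.01%), soybean meal alone, corn gluten with P2 and corn gluten alone, and the control was a feed rich in fish meal. All fish started at 177 g and were held for 67 days at 11.2 °C in 18 tanks. The labels do not give each fish's tank, so the p-values below treat fish as independent and set diet differences against the spread between fish. A tank effect could not be fitted, and the p-values may be too small if fish of a tank were alike. The names of the deposited files mention pea for both corn gluten feeds and the labels do not.

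The probes were selected on the measured values. A value is the log2 processed signal of a spot minus the 75th percentile of its array, so 0 marks that percentile. A probe was taken if it was well above background on all 30 arrays, its mean was more than 1 log2 unit lower with soybean meal than in control, and each soybean meal fish lay below each control fish. The control-subtracted difference with P1, and also that with P2, had to be at least 0.75 of the difference with soybean meal alone. Of 14841 non-control probes, 11484 were well above background on every array and 500 of these met the soybean meal criteria. Of the 500, 102 met both ratios and are described here, and the 398 others serve for comparison. The P1 ratio was met by 350 of the 500. Of the probes left out, 248 missed the P2 ratio alone, 14 the P1 ratio alone and 136 missed both. The same soybean meal and control fish enter both the selection and the denominator of the ratios.

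The array files give no gene for any probe. None of the 14841 identifiers (0 matched) was found in the RefSeq gene table for Ssal_v3.1, the salmon assembly at hand, so probes carry their array identifiers and neither gene functions nor marker genes of the tissue could be examined. Probe sequences were not used here. By prefix, 95 of the 102 identifiers began with Ssa (93.1%, against 92.2% of all probes well above background on every array) and 7 with Omy (6.86%, against 7.76%). Identifiers with an S number made up 48 of the 102 (47.1%, against 41.7%), GRASP identifiers 21 (20.6%, against 26.1%), and TC identifiers 11 (10.8%, against 7.11%).

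As background, soybean meal is known to inflame the distal intestine of salmonids: the mucosal folds shorten, enterocytes lose the absorptive vacuoles typical of this segment, and leukocytes enter the lamina propria. Fish meal feeds do not have this effect and serve as the usual control. Butyrate is a fuel of gut epithelium, and arginine is an amino acid from which nitric oxide and polyamines are made. β-Glucans are cell wall polysaccharides, of yeast for example, that immune cells recognise, and nucleotides are the building blocks that dividing cells need. In whole tissue, fewer cells of a type and less RNA per cell cannot be told apart.

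The arrays were of even quality. Between 12491 and 13376 probes per array were well above background, and arrays of 1 diet correlated at 0.963 to 0.987 across probes. The 30 arrays lay on 6 slides, each holding 2 to 4 of the diets. Soybean meal and control fish shared no slide, so for that pair slide and diet could be separated only through the diets they each shared a slide with.

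Fish 4 of soybean meal + P1 stood apart from the rest of its diet. It had the highest value of the 5 fish at 86 of the 102 probes and the lowest at 0. Among control fish, fish 4 was highest at 55 probes and fish 1 lowest at 49. The diet mean, ratios, counts and medians of the P1 fish are therefore repeated below without fish 4.

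One of the 102, Ssa#EG865078, owes its place to a single spot. Its values were −1.22, −1.38, −1.19, −1.21 and −1.42 in the soybean meal fish and −1.13, 4.11, −0.70, −0.56 and −0.86 in the control fish. The scanner software had marked the control spot at 4.11 as an outlier, which the selection kept. Without that spot the control mean was −0.81 (4 fish), the soybean meal difference was −0.47 log2 units, and 101 probes would remain. The spot is missing from all fitted values below, and counts of fish that do not overlap use every spot.

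The 102 probes were lower with soybean meal by a median of 1.48 log2 units, 2.79-fold, in the fit across all probes. This difference chose the probes, so it is given as a description. In the values of the selection, 54 probes were between 1 and 1.5 log2 units lower, 22 between 1.5 and 2, 19 between 2 and 3, and 7 were 3 or more lower. All 102 passed the test against control with a lower value, where 17.4% of the 13576 probes tested passed lower and 12.9% higher, and in all 102 the 2 groups of fish did not overlap, as the selection demanded (11.7% of probes). With slide as a block, 96 of the 102 passed lower (median −1.61 log2 units). Over all probes 2548 then passed in either direction, against 4107 without the block. At the limit of 1 log2 unit, the probes just inside were Ssa#S18875389 (−1.0025) and Ssa#S47728254 (−1.0046), and just outside lay Ssa#DW572802 and Ssa#S50688750 (both −0.99).

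With P1 the median difference from control was −1.50 log2 units, and with P2 it was −1.32 log2 units, against −1.48 with soybean meal alone. The ratio of the P1 difference to the soybean meal difference had a lowest value of 0.767, a median of 0.978 and a highest value of 1.43. For P2 these were 0.753, 0.854 and 1.64. The P1 ratio was above 1 at 49 probes, so that these were lower with P1 than without it, and the P2 ratio was above 1 at 18. At 12 probes both ratios were above 1. The P1 ratio was the higher of the 2 at 74 probes, and the P2 ratio at 28. A ratio of 0.9 or more was reached by 68 probes with P1 and by 37 with P2. Without P1 fish 4 the P1 ratio had a lowest value of 0.798, a median of 1.08 and a highest value of 1.61, was above 1 at 65 probes and 0.9 or more at 88, and was the higher of the 2 at 86. The probes nearest to the P1 limit were at 0.767 (Ssa#CB502423) and 0.769 (Ssa#EG902316) inside and at 0.742 and 0.736 outside. Those nearest to the P2 limit were at 0.753 (Ssa#KSS3210) and 0.754 (Omy#CA380613) inside and at 0.749 and 0.748 outside.

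Against control, 101 of the 102 passed lower with soybean meal + P1, where 15.1% of all probes did, and 100 of the 102 passed lower with soybean meal + P2, where 8.08% did. The selection used both differences, and nothing is read from these counts. The fish of the 2 diets did not overlap at 92 probes for P1 (8.69% of all probes) and at 83 for P2 (5.65%). Without P1 fish 4, 101 passed lower, where 4027 of all probes passed in either direction. The fish then did not overlap at 99, for which no share of all probes is given. The exceptions to the test were Ssa#EG865078 in both comparisons and Omy#CA380613 with P2, where 1 fish at −3.12 lay far below the others, at −1.06, −1.44, −1.61 and −1.37, against control fish at −1.15, −0.63, −1.26, −0.46 and −0.34.

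The fish of each diet can be placed by the median, over the 102 probes, of a fish's value minus the control mean. It was −1.55, −1.84, −1.52, −0.93 and −1.48 in the fish on soybean meal + P1, −1.54, −1.40, −1.03, −1.23 and −1.60 with P2, and −1.62, −1.60, −1.72, −1.29 and −1.42 with soybean meal alone. The lowest of the 15 fish given soybean meal was thus a P1 fish and the highest was fish 4 of the same diet. The corn gluten + P2 fish were at −0.08, −0.40, −0.07, −0.27 and −0.16, and the corn gluten fish at −0.37, −0.27, −0.28, −0.18 and 0.03. The control fish were at −0.29, −0.12, −0.02, 0.32 and 0.14. The 15 fish on soybean meal feeds did not overlap with the 15 others, and the 2 corn gluten diets overlapped with control. The selection built in the gap between the soybean meal feeds and control, so that gap is a description. The diet means were −1.46 ± 0.33 for soybean meal + P1, −1.36 ± 0.23 for soybean meal + P2, −1.53 ± 0.17 for soybean meal, −0.20 ± 0.14 for corn gluten + P2, −0.22 ± 0.15 for corn gluten and 0.01 ± 0.23 for control (SD, n = 5 each). Without fish 4 the P1 mean was −1.60 ± 0.16 (SD, n = 4).

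Counted per fish, 100, 102, 102, 94 and 100 of the 102 probes lay below every control fish in the P1 fish, and 97, 100, 93, 95 and 101 in the P2 fish. In each fish on soybean meal alone all 102 did so, as the selection demanded. The corresponding numbers were 36, 47, 22, 37 and 24 for corn gluten + P2 fish and 39, 43, 38, 24 and 19 for corn gluten fish. Of all probes kept for the fits, 26.7% to 33.0% per P1 fish, 20.2% to 32.8% per P2 fish, 25.5% to 35.9% per soybean meal fish, 15.6% to 26.2% per corn gluten + P2 fish and 13.0% to 23.6% per corn gluten fish lay below every control fish. Of the 398 other lowered probes, 78.1% to 96.2% per P1 fish and 60.6% to 89.2% per P2 fish did so. For these 398 it was 24.6% to 50.3% per corn gluten + P2 fish and 20.6% to 45.0% per corn gluten fish. The ratios of the selection bound the P1 and P2 values of the 102, and its control fish are the reference here. These counts therefore describe the list. Between 48 and 96 probes per P1 fish, 53 and 91 per P2 fish and 71 and 99 per soybean meal fish were more than 1 log2 unit below the control mean, against 0 to 5 per control fish. In the corn gluten diets 2 to 11 probes per fish were that low.

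At the 398 other lowered probes the order of the diets was more stepped. Their fish medians averaged −1.16 ± 0.26 for soybean meal + P1, −0.74 ± 0.19 for soybean meal + P2 and −1.38 ± 0.18 for soybean meal alone, against 0.01 ± 0.23 in control (SD, n = 5 each). Without fish 4 the P1 value was −1.27 ± 0.12 (SD, n = 4). The gap between P2 and soybean meal at the 102 probes was thus smaller than at the 398, which the ratios of the selection built in.

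The probe with the largest change was Ssa#S30235658. Its values were −4.62, −5.30, −4.74, −1.98 and −5.28 with soybean meal + P1, −5.08, −5.19, −3.60, −4.69 and −5.19 with soybean meal + P2, and −4.65, −5.46, −4.82, −4.74 and −4.48 with soybean meal alone. They were 1.37, 1.67, 2.85, 2.53 and 2.57 with corn gluten + P2, 1.39, 0.28, 1.86, 1.46 and 2.47 with corn gluten, and 0.98, 2.55, 2.86, 2.99 and 2.34 in control. All 15 fish on soybean meal feeds lay below all 15 other fish, and P1 fish 4 was the one nearest to them. The soybean meal mean was 145-fold below the control mean, a difference of −7.18 log2 units, of which 93.8% was still present with P1 and 98.9% with P2. Its lowest processed signal on any array was 17.9 units.

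Ssa#S30236403 had the next lowest difference, −5.38 log2 units or 41.7-fold. With P1 the fish were at 0.69, 0.02, −1.21, 3.15 and −0.12, and with P2 at −2.11, −0.01, 2.33, 2.28 and 1.90. The fish on soybean meal alone were at −1.03, 0.34, −1.51, 0.13 and 0.37, and the control fish at 4.44, 5.23, 5.01, 5.28 and 5.26. Both package groups were widely spread, with an SD of 1.63 with P1 and 1.92 with P2 against 0.87 with soybean meal alone, but none of their fish reached the lowest control fish. The corn gluten + P2 fish, at 4.26, 4.04, 4.61, 4.65 and 4.48, and the corn gluten fish, at 4.12, 3.85, 4.04, 4.21 and 4.59, overlapped with the lowest control fish and lay below the other 4.

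The lowest P1 minus soybean meal differences were those of a pair of probes. Ssa#S31963885 was at −4.52, −5.84, −3.94, −2.35 and −4.22 with P1, at −2.05, −3.66, −5.04, −1.62 and −1.32 with soybean meal alone and at −0.68, 0.32, 1.99, 1.99 and 0.32 in control, a P1 ratio of 1.41. Ssa#S31967851 was at −4.61, −7.26, −3.82, −1.26 and −2.41 with P1, at −2.16, −4.60, −3.44, −0.34 and −2.34 with soybean meal alone and at 1.33, 1.47, 0.39, 1.98 and 1.50 in control, a P1 ratio of 1.33. At both, the P1 and soybean meal fish overlapped, and the diet differences of −1.44 ± 0.74 and −1.30 ± 0.89 log2 units (SE) did not pass. Ssa#S31967851 also had the largest spread of the 102 within the soybean meal diet (SD 1.59) and within P1 (SD 2.29). Its lowest processed signal on any array was 6.18 units, near the lowest of the 102 (5.99 units).

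The highest P2 ratio, 1.64, was that of Ssa#CB504774. Its P2 fish were at −3.53, −4.23, −4.17, −3.47 and −5.06, its soybean meal fish at −2.68, −3.78, −3.25, −3.27 and −3.23, and its control fish at −2.18, −1.68, −1.81, −2.02 and −1.91. The P2 and soybean meal fish overlapped at 1 soybean meal fish, the one at −3.78, and the difference of −0.85 ± 0.33 log2 units (SE) did not pass. The next lowest was Ssa#S19110617, at −5.12, −4.80, −4.33, −4.74 and −5.24 with P2 and −2.99, −4.80, −5.09, −4.14 and −4.25 with soybean meal alone, a difference of −0.59 ± 0.37 (SE) that did not pass.

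Set directly against soybean meal alone, 0 of the 102 probes passed in either direction with P1, where 0.00737% of all probes passed lower and 0.0147% higher. With P2 also 0 of the 102 passed, where 0.169% passed lower and 1.07% higher. The unadjusted limma p was below 0.05 at 0 probes for P1 (10.6% of all probes, either direction) and at 4 for P2 (22.0%). All fish with the package lay below all fish without it at 0 probes for P1 (0.744% of all probes) and at 0 for P2 (1.32%). All lay above them at 0 probes for P1 (0.692%) and at 1 for P2 (3.3%), Ssa#S50838095, named after its values were seen, with P2 fish at −0.0020, 0.0087, 0.23, −0.0014 and −0.05 and soybean meal fish at −0.52, −0.36, −0.29, −0.07 and −0.39. The P1 minus soybean meal values were lower at 49 and higher at 53 probes, with a median of 0.03 log2 units, the same as over all probes (0.03). The P2 minus soybean meal values were lower at 19 and higher at 83 probes, with a median of 0.19, against 0.03 over all probes. This median was 0.13 without P2 fish 3, and 0.27 without P2 fish 5. At the 398 others the medians were 0.24 for P1 and 0.66 for P2, and 54 of the 398 passed higher with P2. The ratios of the selection bound these differences, so they describe the list.

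Without fish 4 the P1 values leaned the other way. The remaining 4 P1 fish differed from soybean meal by a median of −0.12 log2 units, with 65 probes lower and 37 higher, and from control by a median of −1.56 with all 102 lower. The sign of the P1 minus soybean meal median also turned without soybean meal fish 3 (−0.04), and the median was 0.14 without P1 fish 2. Within the slide that held 2 P1 fish, fish 4 among them, and 2 soybean meal fish, 88 of the 102 were higher with P1 (median 0.35). With fish 4 left out of that slide, 52 were higher and 50 lower (median 0.01, 1 P1 fish against 2). Within the slide that held 1 and 2 such fish 51 were higher and 51 lower (median −0.0020). Within the slide that held 2 P2 fish and 1 soybean meal fish, 82 were higher with P2 (median 0.28). Against control within a slide, all 102 were lower with P1 (median −1.83, 2 fish against 1) and with P2 (median −1.64, 2 against 2, and −1.81, 1 against 1). The medians over all probes were −0.05, 0.01 and −0.08. The selection used these fish and built in this direction, so these values describe the list.

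Both packages were also compared with each other within soybean meal, a difference that was not itself part of the selection although all its fish were. The ratios of the selection restrict the values of both packages, so the counts and medians of this comparison describe the list. Of the 102 probes 0 passed, where 0.125% of all probes passed lower and 0.0663% higher with P1 than with P2, and 9 had an unadjusted p below 0.05 (limma; 17.6% of all probes, either direction). Every P1 fish lay below every P2 fish at 1 probe (1.94% of all probes), Ssa#S31963796. The values were lower with P1 at 74 probes and higher at 28, and their median was −0.14 log2 units, that of all probes −0.0039 and that of the 398 others −0.44. Leaving out 1 fish moved the median of the 102 between −0.26 (without P1 fish 4, 86 lower and 16 higher) and −0.05 (without P2 fish 3). The lowest difference was that of Ssa#S31967851, −2.08 ± 0.89 (SE, limma adjusted p = 0.222), whose P2 fish were at −4.47, −1.72, 0.62, −1.83 and −1.54. The highest was that of Ssa#S35559150, 0.55 ± 0.50 (SE, limma adjusted p = 0.573). Without P1 fish 4, 3 of the 102 passed lower, where 1.52% of all probes did. On the slide with 2 P1 fish and 1 P2 fish, 64 were lower and 38 higher with P1 (median −0.26). The median there was 0.02 over all probes and −0.42 at the 398 others.

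The corn gluten fish took no part in the values of the selection. Signal was lower with soybean meal than with corn gluten at all 102 probes, by a median of 1.27 log2 units, and 98 passed with a lower value, where 14.0% of all probes passed lower and 10.5% higher. The fish of the 2 diets did not overlap at 89 probes (9.63% of all probes). The soybean meal fish of this comparison are those that chose the probes, so the counts are a description. The 4 that did not pass, named here because they are so few, were Ssa#S31963796 (−1.05), Ssa#S30295495 (−0.78), Ssa#GRASP209734531 (−0.67) and Ssa#KSS2862 (−0.56). The lowest difference was −6.32 ± 0.51 log2 units (SE) at Ssa#S30235658, and the next was −4.50 ± 0.67 (SE) at Ssa#S30236403. Within the slide that held 1 soybean meal and 3 corn gluten fish, 101 of the 102 were lower with soybean meal (median −1.25).

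With P2 in both feeds the same direction held. Signal was lower with soybean meal + P2 than with corn gluten + P2 at all 102 probes, by a median of 1.10 log2 units, and 88 passed lower, where 9.99% of all probes passed lower and 8.88% higher. Fish did not overlap at 69 probes (6.8% of all probes). At the 398 others the median was −0.55 and 189 passed lower. The soybean meal + P2 fish entered the selection through the P2 ratio. The counts and the gap to the 398 are therefore a description of the list. The differences of the 102 ran from −6.95 ± 0.51 (SE) at Ssa#S30235658 to −0.20 ± 0.16 (SE) at Ssa#GRASP209732441, whose fish were at −1.98, −1.35, −1.37, −1.20 and −1.49 with soybean meal + P2 and at −1.56, −1.46, −1.25, −0.97 and −1.13 with corn gluten + P2. These 2 diets shared no slide, and with slide as a block 60 of the 102 passed lower, where 4.16% of all probes did.

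Against control, values with corn gluten were slightly lower at most of the 102 probes, but 0 passed. Across all probes 0.0% passed lower and 0.0663% passed higher. The values were lower at 84 probes and higher at 18, and their median was −0.19 log2 units, beside −0.02 for all probes and −0.21 for the 398 others, and 16 had an unadjusted p below 0.05 (limma; 6.05% of all probes, either direction). With slide as a block the median of the 102 was −0.47, that of all probes −0.03, and without 1 fish the median of the 102 lay between −0.28 and −0.13. Fish did not overlap at 4 probes (0.442% of all probes), which were Ssa#S50694600, Ssa#CB502423, Ssa#S31992321 and Ssa#CB504784. The control fish had also chosen the probes for their high control values, and their part in this shift was not tested. On the slide with 2 corn gluten fish and 1 control fish, 89 of the 102 were lower with corn gluten (median −0.43 against −0.08 over all probes).

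At Ssa#TC68197, the probe with the lowest corn gluten difference, the corn gluten fish were at −0.92, −0.84, 0.13, −0.96 and 1.14 and the control fish at 0.81, 1.21, 0.85, 1.65 and 0.51. The groups overlapped at 1 corn gluten fish, and the difference of −1.30 ± 0.53 log2 units did not pass (SE, limma adjusted p = 0.793). The soybean meal fish, at −4.06, −2.58, −3.79, −2.06 and −3.73, lay below all of these. Ssa#CB504784 was at −1.78, −2.10, −2.42, −2.34 and −2.63 with corn gluten and at −1.57, −0.59, −0.15, −1.61 and −1.33 in control. These groups did not overlap, yet the difference of −1.21 ± 0.29 (SE) had an adjusted p of 0.280 over all probes in limma. The highest difference was 0.36 ± 0.34 (SE, limma adjusted p = 0.954) at Ssa#GRASP209731837, with corn gluten fish at 2.43, 2.99, 2.80, 2.83 and 3.73 and control fish at 1.84, 1.63, 2.72, 4.06 and 2.74.

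With corn gluten + P2, 74 of the 102 were lower and 28 higher than control. Their median was −0.21 log2 units, beside 0.01 for all probes and −0.24 for the 398 others. Here too the control fish are those that chose the probes for high control values, and their part in this shift was not tested. The median of the 102 was −0.30 without control fish 1 and −0.12 without control fish 4. One of the 102 passed, lower, where 0.0295% of all probes passed lower and 0.0737% higher, and 20 had an unadjusted p below 0.05 (limma; 11.4% of all probes, either direction). Fish did not overlap at 7 probes (0.95% of all probes). On the slide that held 2 fish of each diet the direction was not the same: 43 were lower and 59 higher with corn gluten + P2, with a median of 0.10. The median over all probes there was −0.02. Its control fish were fish 1 and 2, the lowest control fish by the median over the 102 probes (−0.29 and −0.12). Their part in the change of direction was not tested.

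The probe that passed was Ssa#GRASP209733347, named after its values were seen. It was at −3.45, −3.70, −3.20, −3.71 and −3.72 with corn gluten + P2 and at −2.18, −2.54, −3.04, −2.88 and −2.26 in control, so that every corn gluten + P2 fish lay below every control fish. The difference was −0.98 ± 0.18 log2 units, 1.97-fold (SE, limma adjusted p = 0.0215). The control fish of this test had also entered the selection of the probe. Without control fish 1, 2 or 5, or corn gluten + P2 fish 1, 2 or 5, 0 of the 102 passed, and the same held with slide as a block. The fish on corn gluten alone were at −3.60, −3.21, −2.75, −3.32 and −2.92, and those on soybean meal, with the lowest mean of these 4 diets, at −3.88, −3.92, −4.33, −3.72 and −4.14.

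P2 added to corn gluten is the comparison in which neither diet entered the values of the selection. Of the 102 probes 0 passed, as of all 13577 probes (0.0% lower and 0.0% higher), and 9 of the 102 had an unadjusted p below 0.05 (limma; 7.57% of all probes, either direction). The values were lower with P2 at 45 probes and higher at 57, and their median was 0.03 log2 units (median SE 0.25), beside 0.02 for all probes. The median of the 102 was −0.02 without corn gluten fish 1, 0.08 without corn gluten fish 5 and 0.21 with slide as a block. Fish did not overlap in the lower direction at 0 of the 102, and at 0.552% of all probes; in the higher direction these were 0 and 0.773%. The 2 diets shared no slide.

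The highest difference was that of Ssa#S31963796. Its fish were at 0.11, −2.36, −0.94, −1.78 and −3.22 with corn gluten + P2 and at −2.59, −3.95, −3.62, −4.86 and −2.89 with corn gluten alone. Those groups overlapped, and the difference of 1.94 ± 0.47 log2 units had an adjusted p of 0.380 in limma (SE). The control fish were at −3.31, −2.44, −2.22, −1.61 and −3.91, with a mean between those of both diets. Within soybean meal the P2 fish, at −3.70, −4.07, −4.63, −4.46 and −4.16, overlapped the fish without a package, at −4.55, −4.86, −4.89, −4.38 and −4.50, and the P1 fish were at −5.30, −4.84, −5.74, −5.19 and −5.05.

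The next highest was Ssa#S31967851, at 3.44, 2.10, 2.48, 1.86 and 1.02 with corn gluten + P2 and at −0.09, 0.83, 1.79, 0.12 and 1.21 with corn gluten, a difference of 1.41 ± 0.89 (SE, limma adjusted p = 0.753). The lowest was Ssa#TC85948, at 0.0078, −0.76, −0.94, −0.90 and −0.93 with corn gluten + P2 and at −1.27, 0.30, 0.33, 0.60 and 0.55 with corn gluten, a difference of −0.81 ± 0.40 (SE, limma adjusted p = 0.666). In each of these diets 1 fish stood against the other 4. Ssa#S35559150, with −0.66 ± 0.50 (SE, limma adjusted p = 0.800), was at −0.28, −1.49, 0.45, 0.76 and 1.00 with corn gluten + P2 and at 0.64, 0.55, 0.69, 1.10 and 0.75 with corn gluten.

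The 102 probes had larger SDs between fish of 1 diet than the array as a whole. The median SD within a diet was 0.479 log2 units with soybean meal + P1, 0.434 with soybean meal + P2, 0.337 with soybean meal, 0.315 with corn gluten + P2, 0.321 with corn gluten and 0.364 in control. Over the probes well above background on all arrays these medians lay between 0.225 and 0.253. Without fish 4 the P1 value was 0.342 for the 102 and 0.333 for the 398 others. The 398 others, with 0.482 for P1 and 0.387 for P2, were spread in a like way. The widest P2 spread was at Ssa#S30236403 (SD 1.92).

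The fish that were high at one probe were often high at others. Over the 30 arrays, the deviations from the diet means had a median correlation of 0.307 among the 5151 pairs of the 102 probes, with a range of −0.465 to 0.968, and 641 pairs were below 0. These correlations rest on shared arrays, share each array's scaling, and are given as a description. Correlations of 0.9 or more joined 12 probes into 5 sets, which were found after the values were seen. The closest pair was Ssa#DY730337 and Ssa#S50697238 (r = 0.968), with soybean meal differences of −2.86 and −2.91, P1 ratios of 1.21 and 1.12, and P2 ratios of 0.844 and 0.821.

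The fish values of that closest pair are given as the extreme case, not a typical one. At Ssa#DY730337 the P1 fish were at −0.11, −1.88, −0.78, 2.23 and 0.12, the soybean meal fish at 0.47, −0.19, −0.37, 2.11 and 0.65, and the control fish at 3.10, 3.34, 3.22, 3.94 and 3.35. At Ssa#S50697238 the P1 fish were at −4.11, −6.29, −5.41, −1.90 and −3.86, the soybean meal fish at −3.95, −4.55, −4.77, −2.83 and −3.69, and the control fish at −1.44, −1.41, −1.01, −0.40 and −0.97. At both probes fish 4 was the highest of the P1 fish and fish 2 the lowest. The highest soybean meal and control fish were also those numbered 4, a number that the labels do not link across diets.

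Another pair was Ssa#S31963372 and Ssa#TC109014 (r = 0.953), with P1 ratios of 1.28 and 1.28. A further pair was Ssa#KSS2862 and Ssa#S35698783 (r = 0.935), with both ratios above 1. Sets of 3 were formed by Ssa#S30281204, Ssa#TC100565 and Ssa#TC101367 (r of 0.933 to 0.964) and by Ssa#GRASP209153955, Ssa#S18888482 and Ssa#TC85948 (r of 0.876 to 0.965). The soybean meal differences were −1.72 and −1.71 log2 units in Ssa#S31963372 and Ssa#TC109014. Whether the probes of a set report 1 transcript cannot be read from the files.

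Among the other probes well above background on every array, 2 were closest to the array-by-array median of the 102. They were Ssa#S35685649 (Pearson r = 0.974 over 30 arrays) and Ssa#GRASP223646947 (r = 0.973). Both belong to the 398. Diet means were left in for these correlations, so the difference of soybean meal from control, which the selection used, is part of them. Ssa#S35685649 differed from control by −1.61 log2 units with P1, −1.16 with P2 and −1.75 with soybean meal alone, and Ssa#GRASP223646947 by −1.84, −1.41 and −2.03. Their P1 ratios of 0.920 and 0.909 were within the limit, and the P2 ratios of 0.666 and 0.695 kept them out.

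The length of the list depends on where its limits lie and on the background correction. A ratio of 0.5 in place of 0.75 gave 341 probes, and a ratio of 0.9 gave 27. With normexp background correction 60 probes were selected, of which 49 were among the 102. Under normexp 53 of the 102 still met the soybean meal criteria, and their lowest processed signals had a median of 229 units, against 32.5 units for the 49 that did not.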

How the data were processed

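Per the file headers, Agilent Feature Extraction 12.0.1.1 quantified each scan, and the processed signal is a background-subtracted intensity on a linear scale, not normalized between arrays. Per the file headers, the flag columns mark spots as well above background, saturated (0 spots) or outliers (598 spots). Per the labels' protocols, total RNA was column-purified, amplified and labelled with Cy3. A value table, deposited by the authors too, holds intensities of these arrays. It was, by comparison with the scanner files, the spot median minus the background median times 1 factor per array (0.522 to 0.764), linear and not centred, with no direction of comparison, column medians of 73 to 101 and 14191 blank cells (0 at the 102 probes). It served as an alternative.

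From these, log2 of the processed signal minus the array's 75th percentile was computed. The selection used every spot. For the fits, outlier spots were set missing (18 of them at 3 of the 102 probes: Ssa#GRASP209735753 was fitted on 14 arrays), and probes well above background on at least 5 of 30 arrays were kept (13577 kept, 1264 left out). Diets were compared with limma 3.58.1 in R 4.3.3, with 1 coefficient per diet over all 30 arrays and Benjamini-Hochberg adjustment over all probes within a comparison. "Passed" means an adjusted p under 0.05. The limma step was tested on simulated data.

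The members, limits and lists were chosen with earlier results of these data known. By rule, the named probes were at most the 2 highest and 2 lowest of each comparison, those nearest to the selection's limits and the 2 most like the members' median. Others, in small counts and in sets that varied together, were named after their values were seen. The alternatives were normexp, median and quantile scaling, the value table, no filter, slide, fish number, fewer diets, other ratios and leaving out each fish. The files have no mean signal, so normexp used the spot median with offset 50. The labels do not link fish of the same number across diets. Over 75 same-numbered pairs of arrays the correlation of deviations was −0.397 to 0.388, with a median of 0.03. The median over differently numbered pairs from different diets was −0.0012. Of the 75 pairs, 23 were above 0.1, so this check does not settle whether numbers pair fish. The number of arrays limits the precision.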

Additional observations from a re-analysis of the deposited data

Results flagged for a closer look

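By Dixon's criterion (0.71 for 5 fish), 114 sets of 5 fish were examined. Most came from the 18 probes named as the highest or lowest of a comparison. Other named probes, Omy#CA380613 and Ssa#TC109014 among them, were not part of these sets. The criterion looks for 1 fish lying far from the other 4, and 8 sets held such a fish. Chance gives about 1 set in 20. In soybean meal + P1, fish 4 lay above the others at Ssa#S30235658, at −1.98, and at Ssa#TC68197, at −1.22, and at Ssa#S35577848 fish 5 lay below the others, at 0.12. In the soybean meal diet, fish 5 lay below the others at Ssa#CB504784, at −4.42. In corn gluten + P2, fish 1 lay above the others at Ssa#TC85948, at 0.0078, while in corn gluten fish 1 lay below the others at the same probe, at −1.27. In corn gluten, fish 5 lay above the others at Ssa#EG902316, at −2.01. In control, fish 2 lay above the others at Ssa#EG865078, at 4.11, the spot that the scanner software had marked as an outlier.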

How the results depend on the processing

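Over 12 results (the number of probes selected and the 11 counts of selected probes that passed), 98 other settings were run, of which 89 stayed within 1.5 times the reported count. The selection held several of these counts near 102 or 0: soybean meal feeds against control, and each package against soybean meal alone. A count of 0 that stayed 0 was also taken as within 1.5 times. The 89 therefore say little about how stable the list is. The number selected, 102, was 60 with normexp, 341 with a ratio of 0.5, 27 with a ratio of 0.9 and 1.8e+02 from a fit with slide as a block in which fish may overlap (79 of the 102 among them); the last gave 127 without the block, a setting added after the data were seen. It was 81 with median scaling (80 of the 102), 103 with quantile normalization (87), 92 in the authors' value table (87) and 123 when 5 arrays well above background sufficed, and 90 to 141 when 1 fish was left out. For corn gluten against control, 0 passed, and 1 did with the fish number as a replicate block and 0 to 1 without 1 fish (1 without corn gluten fish 4). For corn gluten + P2 against control, 1 passed, and 3 did with the fish number as a replicate block, 0 with normexp, 0 with slide as a block, 0 with only the 2 diets in the fit and 0 to 1 without 1 fish. For P1 against P2 within soybean meal, 0 passed, and 0 to 3 did without 1 fish (3 without P1 fish 4). The labels do not link fish of the same number, and the replicate block moved no other count beyond 1.5 times. For soybean meal against corn gluten, 98 passed, 80 with slide as a block, 71 with normexp and 94 to 98 without 1 fish. Over all probes 3325 passed in either direction, 1819 with slide as a block and 1839 with normexp. For soybean meal + P2 against corn gluten + P2, 88 passed, and the range without 1 fish was 82 to 95. It was 60 with slide as a block, 75 with normexp and 75 with only the 2 diets in the fit. Over all probes 2563 passed in either direction, 1137 with slide as a block, 1363 with normexp and 1752 with only the 2 diets. The cause of these changes was not tested. Normexp moved the median of all probes to −0.28 for soybean meal + P1, −0.30 for soybean meal + P2 and −0.14 for soybean meal against control, and that of the 102 to −1.16, −1.09 and −1.09. The lowest processed signals of the 102 ran from 5.99 to 5230 units at the 49 probes no longer lowered with normexp and from 6.18 to 29484 units at the 53 that were; the part of signal level was not tested.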
